A study of Mus musculus with 4 samples.

Results

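The genes described here are the co-receptors of the T cell receptor and the factors that decide between the CD4 and the CD8 lineage: Cd4, Cd8a, Cd8b1, Zbtb7b (ThPOK), Runx3, Tox, Mazr and Cbfb. They were taken by name and are 8 of the 43430 genes in the count table. The libraries are called WT1, WT2, KO1 and KO2, for WT and KO replicates 1 and 2. Of the 8 genes, 7 were found by symbol in the authors' deposited table. Mazr is a synonym of Patz1 in RefSeq and is called Patz1 below. RNA was sequenced from thymocytes of C57BL/6 mice that had been sorted as CD4+CD8+ double-positive (DP) cells. The knockout (KO) group was 2 mice of genotype Uqcrfs1fl/fl; CD4-Cre+, in which Cre is placed under control elements of the Cd4 gene and deletes floxed Uqcrfs1 from the DP stage. The control group was 2 littermates that the sample labels call WT and the series description calls heterozygous, so WT is used here as the name of the group. Neither the ages of the mice nor the CD4-Cre status of the controls is given in the sources used here. The comparison asks what loss of the Rieske protein of respiratory complex III, the product of Uqcrfs1, does to the transcriptome of DP cells.

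CD4 and CD8 are surface glycoproteins that bind MHC class II and class I molecules beside the T cell receptor and bring the kinase LCK to it. DP thymocytes carry both. After positive selection, a cell that keeps CD4 expresses the zinc finger factor ThPOK, and a cell that keeps CD8 expresses RUNX3, which with its partner CBFB acts on the Cd4 silencer and on the Thpok gene. TOX is needed for the CD4 lineage to form, and MAZR represses the Cd8 genes and the Thpok gene at stages where they are kept silent.

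RefSeq promoter windows were matched for 5 of the 8 genes. The 250 bases before the start are shown for Cd8a, Runx3 and Zbtb7b, because RUNX proteins and E proteins are known to act at these loci, and only where the window holds no exon of the gene itself. The windows are from GRCm38.p6, the build also called mm10, and are written 5′ to 3′ on the strand of the gene. Capitals mark matches to the RUNX motifs TGTGGT and TGTGGC and to the E-box motifs CAGCTG and CAGGTG, searched on both strands.
Cd8a, chr6:71373177-71373426, plus strand: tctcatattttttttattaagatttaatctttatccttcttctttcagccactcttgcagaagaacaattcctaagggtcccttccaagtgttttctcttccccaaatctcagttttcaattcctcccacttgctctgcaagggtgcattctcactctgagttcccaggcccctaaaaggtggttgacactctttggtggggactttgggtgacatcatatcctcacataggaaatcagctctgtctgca
Runx3, chr4:135120395-135120644, plus strand: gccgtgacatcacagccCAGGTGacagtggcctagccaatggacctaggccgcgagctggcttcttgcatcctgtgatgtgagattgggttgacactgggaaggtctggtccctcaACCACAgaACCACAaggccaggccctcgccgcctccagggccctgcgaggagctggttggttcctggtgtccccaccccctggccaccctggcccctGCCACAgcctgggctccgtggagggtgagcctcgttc
Zbtb7b, chr3:89387672-89387921, minus strand: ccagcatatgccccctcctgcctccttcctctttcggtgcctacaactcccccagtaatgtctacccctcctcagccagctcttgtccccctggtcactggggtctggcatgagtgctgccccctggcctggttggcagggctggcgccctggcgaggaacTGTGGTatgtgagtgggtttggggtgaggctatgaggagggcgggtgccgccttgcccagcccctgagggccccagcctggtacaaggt
The Runx3 window lies before the upstream of the 2 listed Runx3 starts. It held 2 matches to TGTGGT, read on the opposite strand as ACCACA, that began 134 and 126 bases before the start. It also held 1 match to TGTGGC at 37 bases and 1 to CAGGTG at 233 bases. The Zbtb7b window lies before the downstream of the 2 listed Zbtb7b starts and held 1 match to TGTGGT at 89 bases. None of the 4 motifs occurred in the Cd8a window. Of the Cd8a window 60 bases, and of the Runx3 window 53, are annotated as exon of a long non-coding RNA gene. Of all 32851 windows of this length, 14% held TGTGGT, 15.7% TGTGGC, 13% CAGCTG and 17.2% CAGGTG. The counts are per gene, so transcripts from the upstream and downstream starts of Runx3 and of Zbtb7b were not separated.

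Gene counts came to between 30408863 and 34080516 per library. Uqcrfs1, the targeted gene, stood at 61.4 and 57.2 CPM in the libraries WT1 and WT2, against 15.6 and 18.6 CPM in KO1 and KO2 (log2 change -1.80, SE 0.09; edgeR adjusted p = 1.78e-04). Counts per library were put on this scale (CPM) with TMM factors. Reads outside annotated exons made up 17.2% and 18.6% of uniquely aligned reads in WT and 20.6% and 19.9% in KO. The part of this difference in the results below was not tested. In KO2, 35 of 11462 genes with a mean of at least 1 CPM were at least 2-fold above each of the other libraries, against 1 to 3 such genes in the other libraries. At least 2-fold below each other library were 15 genes in WT1, 13 in WT2, 8 in KO1 and 5 in KO2. Zbtb7b is one of the 35 high in KO2, and its values are given with and without KO2.

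All 8 genes passed the filter on low counts and 0 changed in KO at an adjusted p under 0.05 (edgeR's quasi-likelihood test, Benjamini-Hochberg over 13281 genes), where 0.0226% of all genes tested did. DESeq2, which called 0.181% of all genes, and edgeR's exact test, which called 0.61%, also called 0 of the 8. A p that misses the threshold does not show that the levels were equal, and the intervals below bound the differences. Values were higher in KO for Cd4, Zbtb7b, Runx3, Tox and Cbfb, and lower for Cd8a, Cd8b1 and Patz1, that is higher for 5 of 8 genes against 49.9% of all genes. The median log2 change over the 8 was 0.05, against -9.85e-05 over all genes tested. At an unadjusted p under 0.05 there was 1 of the 8, Cd8a, against 8.4% of all genes. The groups did not overlap for 6 of the 8 genes, 3 with KO above and 3 with KO below, while 40.5% of all genes did not overlap, 20.4% with KO above and 20.1% with KO below. Runx3, counted as KO above, was so by only 0.007 CPM between WT1 and KO2, which is within counting error. In sorted bulk cells, fewer cells of a type and less RNA per cell cannot be told apart.

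**Figure D1:**
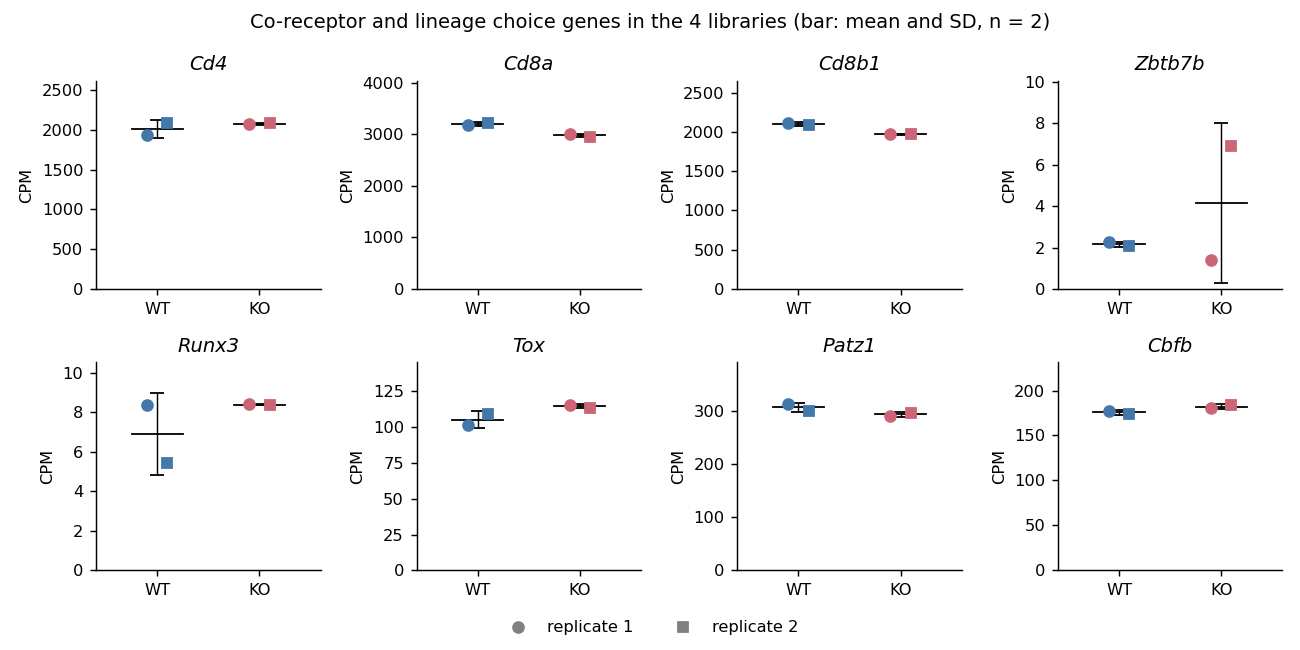
TMM-scaled CPM (vertical axes, from 0) of the 8 genes in the WT and KO libraries, with circles for replicate 1, squares for replicate 2, and bars for the mean and SD (n = 2). Cd8a and Cd8b1 lie lower in both KO libraries, the Zbtb7b mean in KO is set by KO2 at 6.90 CPM, and the Runx3 mean in WT is lowered by WT2 at 5.43 CPM.

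Cd8a and Cd8b1, which encode the alpha and beta chains of CD8, had slightly lower values in KO1 and KO2 than in either WT library. Cd8a (ENSMUSG00000053977), whose promoter window is printed above, spans 71373427 to 71379173 of chromosome 6 in mm10, on the plus strand, with 4 exons after merging of overlapping ones. It stood at 3172 and 3224 CPM in WT1 and WT2, against 3000 and 2952 CPM in KO1 and KO2. The means were 3198 ± 36.5 and 2976 ± 34.3 CPM (SD, n = 2), so the gap between the groups exceeded the spread within each. The log2 change was -0.10 (SE 0.05), with a 95% interval from -0.21 to -0.001 before adjustment, and it did not pass the test (edgeR adjusted p = 0.589).
Cd8b1 (ENSMUSG00000053044) lies upstream on the same strand, from 71322788 to 71337494, with 6 merged exons, and ends 35933 bases before Cd8a starts. It stood at 2117 and 2084 CPM in WT, against 1976 and 1967 CPM in KO. Both KO values lay below both WT values, as for Cd8a, with a log2 change of -0.09 (SE 0.04, interval -0.19 to 0.01, adjusted p = 0.618).
With each library left out in turn, the change ran from -0.12 to -0.09 for Cd8a and from -0.11 to -0.08 for Cd8b1, and neither was called.

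Cd4, which encodes the MHC class II co-receptor, had overlapping groups. The gene (ENSMUSG00000023274) spans 124864692 to 124888221 of chromosome 6, on the minus strand, with 11 merged exons. It stood at 1933 and 2091 CPM in WT, against 2068 and 2086 CPM in KO. WT1 was the lowest library, and WT2 the highest. The log2 change was 0.05 (SE 0.05, adjusted p = 0.821), and the 95% interval, from -0.07 to 0.16, bounds the KO level between 0.951 and 1.12 times that of WT. Without WT1 the change was -0.01, so its direction rests on that library. Whether transcripts of the CD4-Cre transgene add reads to Cd4 was not tested.

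The ratio of Cd4 to Cd8a counts, which does not depend on scaling between libraries, was 0.609 and 0.649 in WT1 and WT2 and 0.689 and 0.707 in KO1 and KO2. Both KO ratios lay above both WT ratios. On the log2 scale the ratio was 0.15 higher in KO (exact two-sided permutation test, p = 0.333, which is the smallest p that 2 against 2 libraries allow). The difference was 0.11 to 0.20 with each library left out. The ratio of Cd8b1 to Cd8a was 0.667 and 0.646 in WT and 0.658 and 0.666 in KO. These groups overlapped (log2 difference 0.01, exact permutation p = 1). Its direction turned without WT2 (-0.01). With the 2 Runx3 ratios below, 4 ratios were compared, and with a smallest possible p of 0.333 none could pass. Together the 3 co-receptor genes took 0.722% and 0.739% of all gene counts in WT and 0.705% and 0.701% in KO.

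**Figure D2:**
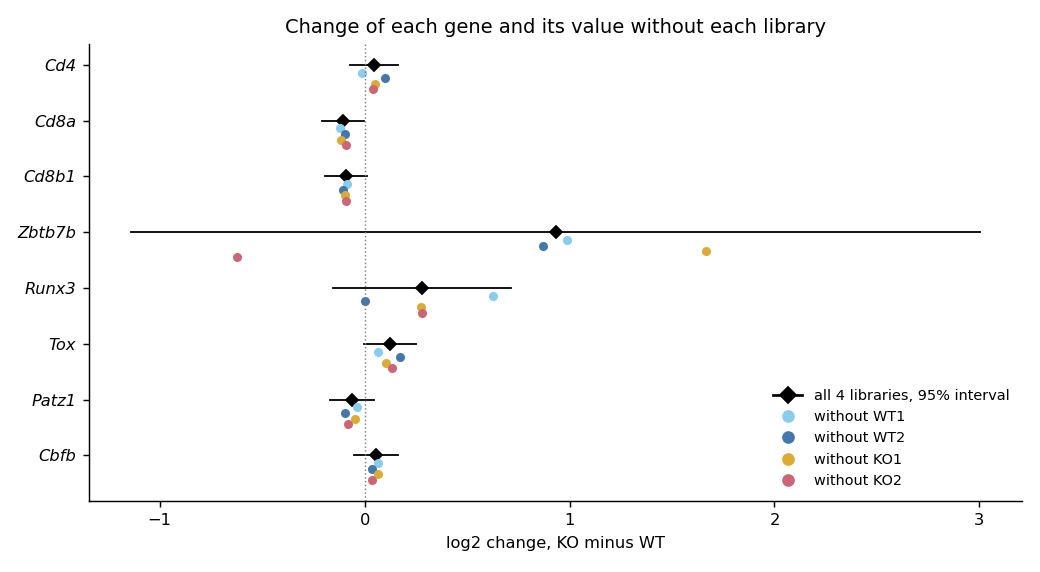
Log2 change (KO minus WT, horizontal axis) of each gene with its 95% interval in black, and coloured points for the value without each library. The points of Cd4, Cd8a, Cd8b1, Patz1 and Cbfb lie between -0.12 and 0.10, and those of Zbtb7b run from -0.62 to 1.67.

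Zbtb7b, which encodes ThPOK, was high in KO2 and not in KO1. The gene (ENSMUSG00000028042) spans 89377644 to 89394776 of chromosome 3, on the minus strand, with 10 merged exons. It had 74 and 63 counts in WT1 and WT2, and 48 and 219 counts in KO1 and KO2. These are 2.25, 2.07, 1.41 and 6.90 CPM, with exact Poisson intervals (95%, counting error only) of 1.77 to 2.83, 1.59 to 2.65, 1.04 to 1.87 and 6.02 to 7.88 CPM. KO2 was thus the highest library and KO1 the lowest, and the groups overlapped. Its log2 change of 0.93 had a standard error of 0.77 (edgeR adjusted p = 0.776). It was -0.62 without KO2. Without KO1, which leaves KO2 alone and assumes that it varies like the WT group, it was 1.67 and was called (edgeR adjusted p = 0.00265, with 0.387% of genes called in that fit).

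Many marker genes of other cell types were also highest in KO2, though fewer in some lists. Of stromal and epithelial markers 3 of 10 were. Of 6 erythroid ones 2 were, and 2 were at 0 in every library. Of the 11 DP markers other than the co-receptors, 2 were highest in KO2. The share of all genes highest in KO2 was not computed, so these counts and those below cannot be read as an excess. Of the 12 markers of myeloid and dendritic cells, 11 were highest there, and the 10 that averaged under 5 CPM in WT summed to 9.38 and 6.45 CPM in WT and to 6.54 and 36.0 CPM in KO1 and KO2. Lyz2, which encodes lysozyme, was at 0.487, 0.230, 0.499 and 5.36 CPM in WT1, WT2, KO1 and KO2. The MHC class II chain gene H2-Aa was at 0.822, 0.428, 0.235 and 5.86 CPM in that order.
Low markers of mature CD4 T cells other than Zbtb7b summed to 6.33, 4.94, 6.45 and 9.64 CPM in the same order, with 7 of 11 markers highest in KO2. Those of mature CD8 T cells other than Runx3 summed to 6.33, 7.83, 7.86 and 15.2 CPM (6 of 11 highest there, Gzmk at 0 in every library). Those of NKT and gamma-delta T cells summed to 7.12, 6.25, 5.19 and 14.8 CPM (5 of 9 highest there).
Of the regulatory T cell factor Foxp3 there was 0.518, 0.263, 0.440 and 1.36 CPM, and of Cd40lg, the CD40 ligand gene of helper T cells, 0.913, 1.32, 1.35 and 1.86 CPM. Of the NKT and gamma-delta list, Il2rb (1.86, 1.94, 1.20 and 4.79 CPM), Tcrg-C4 (0.883, 0.856, 0.498 and 3.15 CPM), Sox13 (0.761, 0.395, 0.645 and 2.83 CPM) and Blk (0.731, 0.889, 0.762 and 1.54 CPM) were all highest in KO2. On the same list, Tbx21 was highest in WT1 (1.92, 0.790, 1.29 and 0.977 CPM) and Maf in WT2 (0.365, 0.724, 0.528 and 0.662 CPM).
Low B cell markers summed to 1.77, 1.48, 2.35 and 3.37 CPM. Of these, Blnk (0.853, 0.922, 1.29 and 1.45 CPM) was higher in both KO libraries, Cd79a was at 0.518, 0.198, 0.440 and 0.851 CPM, and Cd79b, above that limit, at 27.3, 24.1, 27.3 and 24.7 CPM. Of other myeloid markers, Itgam was at 9.47, 10.2, 9.41 and 11.0 CPM and H2-Ab1 at 3.81, 2.83, 3.28 and 6.40 CPM. Low stromal and epithelial markers summed to 0.426, 0.395, 0.674 and 1.04 CPM, with Krt8, Col1a2 and Pdgfra at 0 in every library, and erythroid markers to at most 0.221 CPM. Col1a1 was at 0.335, 0.296, 0.586 and 0.819 CPM, Epcam at 4.81, 5.86, 3.67 and 4.95 CPM and Pecam1 at 146, 150, 141 and 139 CPM.

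Markers of double-negative (DN) thymocytes, the stage before DP, included genes with higher values in KO1 as well as in KO2. All 15 together summed to 409, 424, 461 and 537 CPM in WT1, WT2, KO1 and KO2, most of it from Notch1 and Notch3. Of the 15, 6 were higher in both KO libraries and 1 was lower in both, against 20.4% and 20.1% of all genes tested. Highest in KO2 were 11 of the 15, a count for which the share of all genes was not computed. The 8 low ones summed to 6.73, 6.25, 6.33 and 15.2 CPM. Of the 12 tested, 11 had a log2 change above 0 (median 0.37), against 49.9% of all genes tested. This was not particular to DN markers. Above 0 were also 7 of 7 tested myeloid and dendritic markers, 4 of 4 B cell and 6 of 7 NKT and gamma-delta ones. With members counted, so were 5 of 5 mature CD8, 9 of 12 mature CD4 and 9 of 14 DP markers. Of stromal and epithelial markers 1 of 3 was. Ptcra, Kit and Il7r were lowest in KO1, with log2 changes of -0.02, 0.03 and 0.23. Dtx1, a Notch target gene, was at 11.0 and 11.2 CPM in WT, against 18.4 and 25.3 CPM in KO (log2 change 0.98, SE 0.15; edgeR adjusted p = 0.124). Notch3, a receptor gene of that pathway, was at 65.8 and 65.0 CPM, against 82.5 and 98.4 CPM (log2 change 0.47, SE 0.08; edgeR adjusted p = 0.213). Notch1 was at 266 and 282 CPM, against 294 and 313 CPM (log2 change 0.15, SE 0.05; edgeR adjusted p = 0.547). The groups did not overlap for any of these 3 genes, which were named for their small p in these data.
Dtx1 and Notch3 did not pass the main test, but DESeq2 called both (adjusted p = 2.04e-05 for Dtx1 and 7.21e-04 for Notch3), as did edgeR's exact test (1.10e-06 and 2.04e-04). Without KO2, Dtx1 was at 0.73 and called (edgeR adjusted p = 0.00252, with 0.322% of genes called in that fit), and Notch3 was at 0.33 and was not (edgeR adjusted p = 0.117).
The part of any of these cells in the Zbtb7b value, or in those of the other members, was not tested. Among markers of DP cells other than the co-receptors, all 11 were detected. Rag1, a recombinase gene, was at 5475, 6464, 6415 and 6592 CPM, Aqp11 at 274, 275, 249 and 248 CPM and Cd1d1, which presents lipids to NKT cells, at 69.9, 68.4, 69.3 and 57.8 CPM.

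**Figure D3:**
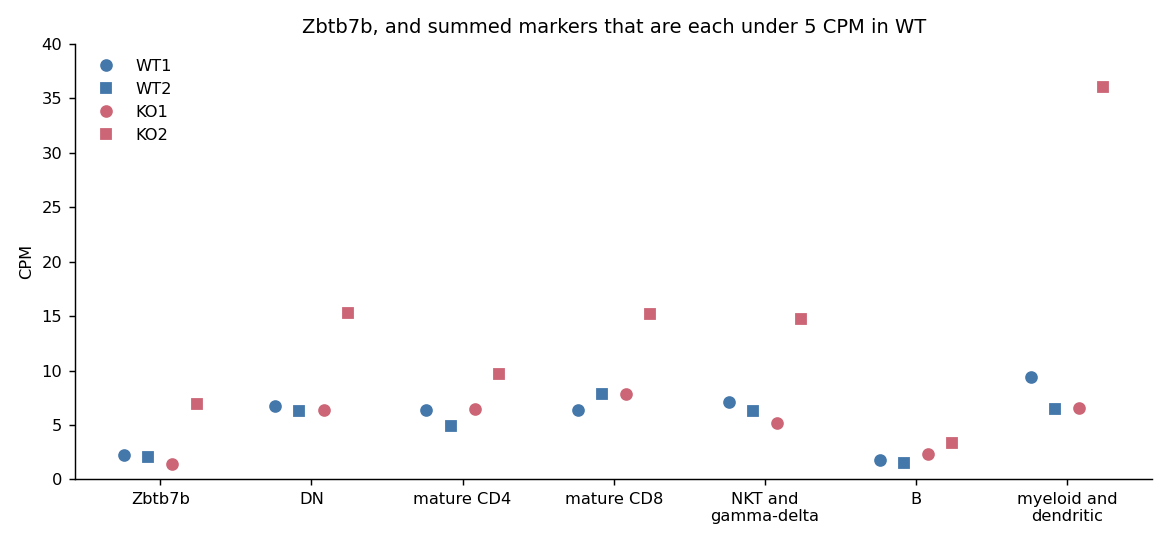
CPM (vertical axis) of Zbtb7b and summed CPM of the markers of 6 other cell types that each averaged under 5 CPM in WT, in the 4 libraries. KO2 is the highest library in each column, at 6.90 CPM for Zbtb7b and 36.0 CPM for myeloid and dendritic markers.

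Tox, an HMG box factor of thymocyte selection, was somewhat higher in both KO libraries. The gene (ENSMUSG00000041272) spans chromosome 4 from 6686353 to 6991557 on the minus strand and has 11 merged exons. It stood at 101 and 109 CPM in WT, against 116 and 114 CPM in KO. The groups did not overlap, although the gap between WT2 and KO2 was smaller than that between the WT libraries. On the log2 scale the change was 0.12 (SE 0.06, interval -0.005 to 0.25, adjusted p = 0.608). It ran from 0.06 without WT1 to 0.17 without WT2. Of its paralogues, Tox2 was at 4.87, 3.56, 4.78 and 4.57 CPM and Tox4 at 119, 107, 126 and 108 CPM in WT1, WT2, KO1 and KO2, and the groups overlapped for both.

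Runx3, the RUNX factor of the CD8 lineage, had nearly equal values in 3 libraries and a lower one in WT2. The gene (ENSMUSG00000070691) spans 135120652 to 135177990 of chromosome 4, on the plus strand, with 9 merged exons. It had 275 and 165 counts in WT1 and WT2, and 287 and 266 counts in KO1 and KO2. In CPM these are 8.37, 5.43, 8.42 and 8.38, and the counting interval of WT2, 4.63 to 6.33 CPM, lies below those of the other libraries, of which the lowest bound is 7.40 CPM. This gave a log2 change of 0.28 (SE 0.19, interval -0.16 to 0.71, adjusted p = 0.700). Without WT2 it was -1.97e-04, and without WT1 it was 0.62. The ratio of Runx3 to Zbtb7b counts was 3.72 and 2.62 in WT and 5.98 and 1.22 in KO, so the KO libraries held both the highest and the lowest ratio (exact permutation p = 1).

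Cbfb, the non-DNA-binding partner of the RUNX proteins, was slightly higher in both KO libraries. The gene (ENSMUSG00000031885) spans 105170674 to 105217989 of chromosome 8, on the plus strand, with 7 merged exons. It stood at 177 and 174 CPM in WT, against 180 and 184 CPM in KO. The groups did not overlap, but WT1 and KO1 were closer to each other than the libraries within either group. The log2 change was 0.05 (SE 0.05, interval -0.05 to 0.16, adjusted p = 0.777), and it ran from 0.03 without WT2 to 0.07 without KO1. The ratio of Runx3 to Cbfb counts was 0.0472 and 0.0312 in WT and 0.0467 and 0.0455 in KO (exact permutation p = 1), and only WT2 stood apart.
Patz1, which encodes MAZR, was slightly lower in both KO libraries. The gene (ENSMUSG00000020453) spans 3288874 to 3309083 of chromosome 11, on the plus strand, with 10 merged exons. Its exons share 605 bases with Gm12592 on the opposite strand and 88 bases with Gm11944 on the same strand, so its counts are less certain than those of the co-receptors. Exons of Tox share 260 bases with Gm11802 and those of Zbtb7b 116 with Gm15417, both on the opposite strand, so this limit holds for them too. Patz1 stood at 313 and 300 CPM in WT, against 290 and 297 CPM in KO. WT2 and KO2 were closer to each other than the libraries within either group. Its log2 change was -0.06 (SE 0.05, interval -0.17 to 0.05, adjusted p = 0.733), and it ran from -0.04 without WT1 to -0.10 without WT2.

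Per length of merged exons, the levels of the 8 genes spanned more than 3 orders of magnitude. In TPM, the count per length scaled to a common total and averaged over the 4 libraries with the SD over them, Cd8b1 was at 5354 ± 144, Cd8a at 3310 ± 115 and Cd4 at 1979 ± 93.9 TPM. Each co-receptor lay apart from the next in every library. Cbfb at 201 ± 6.68 TPM and Patz1 at 198 ± 4.32 TPM did not differ beyond their spread, and Patz1 was above Cbfb when the longest transcript was used as the length. Tox followed at 56.4 ± 3.86 TPM. Runx3 at 5.97 ± 1.16 TPM and Zbtb7b at 2.21 ± 1.79 TPM came last, and their ranges overlapped through KO2 of Zbtb7b (4.87 TPM) and WT2 of Runx3 (4.23 TPM). The 3 co-receptor genes ranked above 99.7% of the genes tested, and Runx3 and Zbtb7b above 25.4% and 14.9%.

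**Figure D4:**
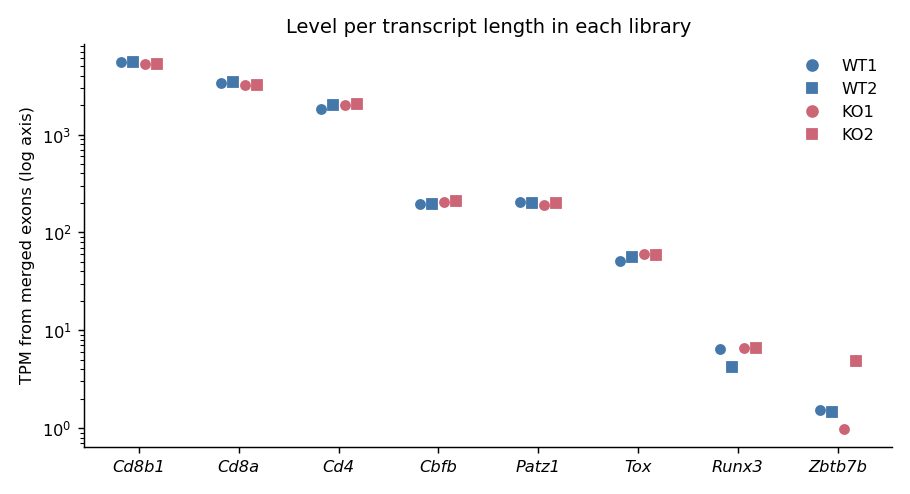
TPM from merged exon lengths (vertical log axis) of the 8 genes in each of the 4 libraries. The co-receptors lie between 1839 and 5480 TPM in every library, and Runx3 and Zbtb7b lie between 0.987 and 6.61 TPM.

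The genes whose pattern over the 4 libraries was closest to that of each co-receptor were found among 4787 other genes of at least 50 CPM, by the root mean square difference of centred log2 CPM. For Cd8a these were Tnfrsf1a (0.0019), mt-Rnr1 (0.0067) and Pcyt2 (0.0078), and Cd8b1 came 83rd (0.018). For Cd8b1 they were Mgrn1 (0.0024), Fth1 (0.0032) and Smg9 (0.0042), with Cd8a 121st. For Cd4 they were Nedd9 (0.0046), Safb2 (0.0050) and Med12 (0.0053), and Cd8a came 3284th. With 4 libraries many genes share a pattern, so these are descriptions only.

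Other genes of the pathway were grouped in 8 lists, without the members. In either direction 0 of their genes were called, where only 3 of all 13281 genes tested (0.0226%) were. The direction of the median turned for 7 of the 8 lists when 1 library or another was left out, so these medians show no direction. Chromatin regulators that act on the Cd4 silencer and Cd8 enhancers lay around a median log2 change of 0.002, with 16 of 28 higher and 12 lower. Among them the acetyltransferase gene Kat5 was at -0.15 (SE 0.06), the BAF subunit gene Smarcb1 at -0.13 (SE 0.05), the dioxygenase gene Tet3 at 0.14 (SE 0.06) and Arid1a at 0.01 (SE 0.07). RUNX proteins and their TLE co-repressors had a median of 0.01 over 6 tested genes (4 higher, 2 lower). Runx1, the RUNX factor of DP cells, was at 154, 168, 164 and 161 CPM in WT1, WT2, KO1 and KO2, and Tle4 was at 24.9, 26.1, 28.8 and 32.5 CPM (log2 change 0.26, SE 0.08; edgeR adjusted p = 0.526). Tle1 was at -0.11 and Tle3 at -0.04.
CD4 lineage factors had a median of 0.03 (8 of 11 higher, 3 lower). Gata3, which acts upstream of ThPOK, was at 92.4 and 92.7 CPM in WT, against 85.1 and 86.1 CPM in KO (log2 change -0.11, SE 0.05). Its groups did not overlap. Myb was at 0.13 (SE 0.05) and Tcf7 at 0.03. CD8 lineage genes had a median of 0.13 over 7 tested genes (4 higher, 3 lower), but of -0.20 without KO2, 0.42 without KO1, 0.35 without WT1 and 0.02 without WT2. The perforin gene Prf1 stood at 2.71 and 3.85 CPM in WT, against 5.45 and 4.38 CPM in KO (log2 change 0.59, SE 0.22), while Nkg7 at 1.17 and Itgae at 0.71 were high in KO2 and at -0.20 and -0.66 without it. Ets1 was at -0.05.

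E proteins and their inhibitors had a median of 0.03 over 7 tested genes (5 higher, 2 lower). Id3 was at 96.8 and 91.3 CPM in WT, against 81.1 and 71.0 CPM in KO (log2 change -0.31, SE 0.07). The E protein genes Tcf3 and Tcf12 were at -0.07 and 0.02, and Id2 at 0.13. Genes of signalling at the co-receptors had a median of -0.02 (7 of 19 higher, 12 lower). Lck, the kinase bound by CD4 and CD8, was level across the libraries, at 2692, 2678, 2687 and 2671 CPM in WT1, WT2, KO1 and KO2. The adhesion receptor gene Cd6 was at -0.11 (SE 0.05), Ubash3a at -0.11 (SE 0.05) and the diacylglycerol kinase gene Dgka at 0.14 (SE 0.05).
IL-7 receptor and STAT5 genes, which act in CD8 lineage choice, had 7 of 13 higher and 6 lower. The cytokine signalling inhibitor Socs1, which is also in the CD4 lineage list, was at 164 and 168 CPM in WT, against 147 and 142 CPM in KO (log2 change -0.20, SE 0.05). Socs3 was at 0.20 (0.06 without WT1, 0.34 without WT2), Bcl2 at 0.22 (0.08 without KO2, 0.36 without KO1) and Jak1 at -0.05 (-0.09 without WT1, -0.02 without WT2). Il7r itself was at 5.21, 5.43, 3.17 and 9.36 CPM in WT1, WT2, KO1 and KO2, with KO2 highest as for Zbtb7b. Paralogues and neighbours of the members had a median of 0.04 (7 of 8 higher, 1 lower), with Lag3, next to Cd4, at -0.07 and Rmnd5a at 0.05.

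**Figure D5:**
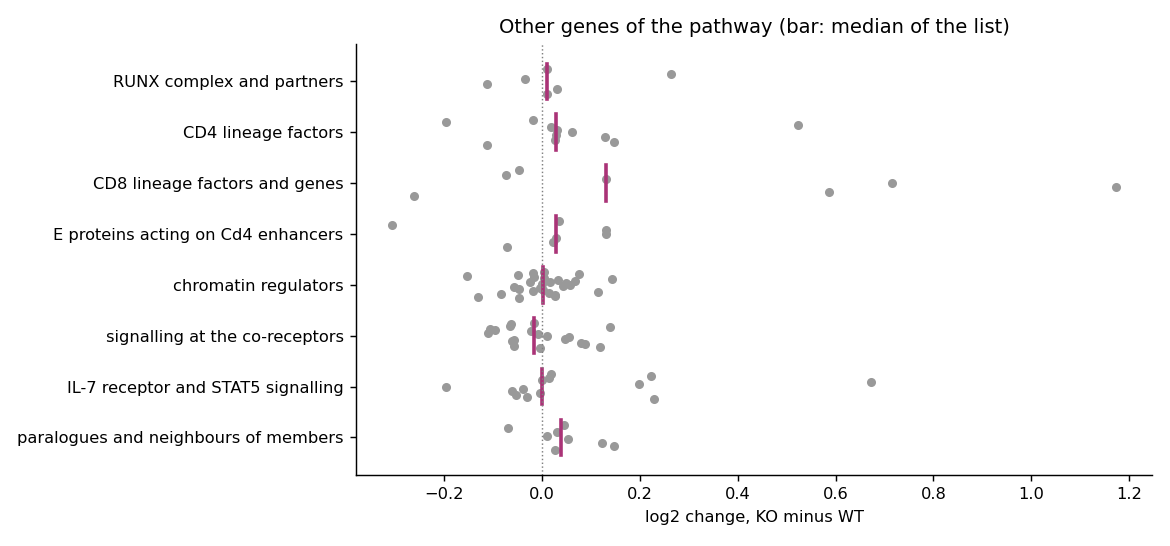
Log2 change (KO minus WT, horizontal axis) of each tested gene of the 8 pathway lists without the members, as gray points, with a bar at the median of each list. The medians lie between -0.02 and 0.13, the upper one being that of the CD8 lineage list, which is -0.20 without KO2, and 0 points are called.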

How the data were processed

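The authors deposited unscaled HTSeq counts for each gene and library. Per the submitters' processing notes, Trimmomatic 0.33, STAR 2.5.2, HTSeq and edgeR were used on mm10. The sources used here give no annotation, strand setting or HTSeq mode. Reads of antisense and overlapping genes are therefore uncertain. The authors' deposited table gives CPM per library, log2 changes, p-values and a likelihood ratio score. It marks 46 of its 11536 genes as changed, and 0 of the 8 members. HTSeq summary lines were left out of library totals.

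Symbols, exon lengths and positions came from GENCODE M21 (GRCm38) and synonyms and promoters from RefSeq. Listed genes Iglc1, Tle5 and Trdc were not matched. Differences were tested in R 4.3.3 with the quasi-likelihood model of edgeR 4.0.16 (filterByExpr, minimum count 10, TMM, robust, group only) over 13281 genes. In a simulated dataset, this model recovered 13 of 50 genes changed 1.25-fold, the smallest change tried, so a small change in a member may go uncalled. Of its 151 calls 16 were false, more than its nominal rate. The data gave 3 calls, so these rates may not hold for them. Alternatives used DESeq2 1.42.0, other scalings and filters, and left-out libraries. Intervals are 95%, and those from counts cover counting error only. Library pairs differed by more than sampling noise (chi-square per degree of freedom 4.82 to 12.1). WT1 and WT2 differed more (9) than WT2 and KO1 (5.46) or WT2 and KO2 (7.74), and KO1 and KO2 differed least (4.82). TPM was computed from the counts. By rule, all members and, per list, the 3 genes of smallest p and the most abundant one are named, except a few that are not reported here. Runx1, Il7r, Tox4, Ptcra, Kit, Tbx21, Maf, the markers at 0 and the genes of the other observations were named after their values were seen. Members and lists were chosen with earlier results of these data known.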

Additional observations from a re-analysis of the deposited data

How the results depend on the processing

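The count of all genes called was 3 in the reported fit, 24 with DESeq2, 81 with edgeR's exact test, 191 with no filter on low counts, 27 with the replicate block, and 41 to 365 with each library left out (365 without WT2). It stayed at 3 with RLE factors, library totals, the 1 CPM filter and no robust estimation. Of the 8 members, 0 were called in each of these, except that 1, Zbtb7b, was called without KO1 (range 0 to 1). The pathway lists held 0 called genes, but 1 in the CD4 lineage, E protein and IL-7 receptor lists with no filter, 1 in the E protein list with the exact test, 1 in the CD8 lineage list without KO1, and 1 in the chromatin and IL-7 receptor lists without WT2. The replicate block called 0 of the members. Same-numbered libraries did not deviate together across genes (r = 0.0246 across 8653 genes). This value cannot decide whether they shared more than a number, such as a batch. With each library left out, log2 changes ran from -0.013 to 0.10 for Cd4, from -0.62 to 1.67 for Zbtb7b and from -1.97e-04 to 0.62 for Runx3. The 5 other members did not change direction under any of the 12 alternatives. Log2 ratios (KO minus WT) ran from -0.011 to 0.035 for Cd8b1 to Cd8a, from -1.36 to 0.94 for Runx3 to Zbtb7b and from -0.034 to 0.56 for Runx3 to Cbfb. Of the named genes that the reported fit did not call, 12 were called under some alternative: Zbtb7b, Dtx1, Notch3, Id3, Socs1, Socs3, Rag1, Sox13, Tcrg-C4, Itgae, H2-Aa and Lyz2. Among other named genes, the range spanned 0 for Arid1a (-0.080 to 0.10), H2-Aa (-1.41 to 3.21), Id2 (-0.26 to 0.44), Itgae (-0.66 to 1.41), Lag3 (-0.17 to 0.031), Nkg7 (-0.20 to 1.87), Tcf12 (-0.054 to 0.094), Tox2 (-0.064 to 0.39), Runx1 (-0.054 to 0.069), Il7r (-0.75 to 0.81), Tox4 (-0.065 to 0.16), Blk (-0.085 to 0.93), Cd1d1 (-0.26 to 7.88e-04), Cd79b (-0.071 to 0.10), H2-Ab1 (-0.019 to 0.94), Il2rb (-0.66 to 1.33), Itgam (-0.067 to 0.15) and Tcrg-C4 (-0.80 to 1.85). The range also spanned 0 for Ptcra (-0.14 to 0.10), Kit (-0.13 to 0.17), Tbx21 (-0.76 to 0.52) and Maf (-0.29 to 0.69), which the count of 12 leaves out. That count also leaves out H2-Eb1, Igha, Ccnd2, Il2ra and Tcrg-C2, whose calls under the alternatives were not looked up. With the longest transcript as length, Cd8b1 stood at 4054, Cd8a at 2915, Patz1 at 239, Cbfb at 183 and Tox at 82.0 TPM. These TPM shifts follow from the lengths used and the scaling to a common total. The cause of the shifts between fits was not tested. With 2 mice per group, fits without 1 library assume that a lone library varies like the other group, and Zbtb7b and Runx3 rest on 48 to 287 counts per library.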

Other observations

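KO2 held 35 genes at least 2-fold above each other library, chosen here after their values were seen. Besides Zbtb7b and listed markers, they included the MHC class II chain gene H2-Eb1, at 0.426, 0.395, 0.469 and 4.54 CPM in WT1, WT2, KO1 and KO2. The immunoglobulin heavy chain gene Igha stood at 1.01, 1.55, 1.64 and 10.2 CPM in that order, and the cyclin gene Ccnd2 at 5.94, 5.17, 5.25 and 19.9 CPM. Of genes typical of the DN stage, Il2ra (CD25) was at 8.50, 10.5, 12.9 and 26.4 CPM. The gamma chain constant gene Tcrg-C2 was at 1.31, 1.09, 1.44 and 5.80 CPM.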
